A study of Mus musculus with 16 samples.

Results

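The late cornified envelope group 3 genes are 6 neighbouring genes of mouse chromosome 3, Lce3a to Lce3f, and all 6 were found by symbol among the 55359 gene identifiers counted in the skin libraries. They encode small proteins of the cornified envelope, the cross-linked protein shell that replaces the plasma membrane of a keratinocyte as it dies and joins the skin barrier. They lie in the epidermal differentiation complex, a long stretch of genes for envelope proteins and their relatives that are switched on late in keratinocyte differentiation. In human skin the LCE3 group is known for being low in undisturbed epidermis and for rising after barrier injury and in psoriasis, and a common deletion of LCE3B and LCE3C is a known risk factor for that disease.

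Whole dorsal skin was taken from 16 wild-type mice aged 8 weeks, labelled C57Bl/6 and named as C57Bl/6N in the study's text, with the hair cycle given as telogen, the resting phase. Each sex gave 4 mice exposed to UVB and 4 that were not. Irradiated mice received 3 exposures of UVB, and their skin was collected 6 h after the last, on day 5, while no-UVB mice were not irradiated. Irradiated mice were shaved first, and whether no-UVB mice were shaved is not given in the sources used here. Poly(A) RNA was sequenced from each mouse, and reads on genes numbered 16495776 to 33404831 per library with a median of 21767339.

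Each level below is in CPM, the counts of a gene relative to all gene reads as edgeR computes it after TMM scaling of the libraries, and a gene was called changed by UVB at an adjusted p under 0.1 with a fitted log2 fold change past 1. Keratins of the basal layer (Krt5 and Krt14) and of the suprabasal layers (Krt1 and Krt10) were high in every mouse, and Xist matched the labelled sex in all 16 libraries. Markers of the growing hair follicle, 8 genes for inner root sheath keratins and for regulators of the hair bulb, summed to 54.5 and 93.9 CPM in no-UVB males 3 and 4 and to between 7.09 and 14.8 CPM in each of the other mice. These 2 males therefore stood apart from the label of resting hair, and the male responses of the members are also given without them. For the other genes named, the male responses without these mice are given where a call changed or a value moved by over 1.5-fold, save for Sprr2f and Sprr3, which had 0 counts in the no-UVB males that remained. Fewer cells of a type and less RNA per cell cannot be told apart in RNA from whole skin.

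The 6 genes span 68.1 kb of GRCm39 (chr3:92832594-92900733), each with 2 exons and a coding part of 294 bases. Lce3a (ENSMUSG00000054325.6) lies on the minus strand at chr3:92832594-92833537, and the others on the plus strand. Lce3b (ENSMUSG00000042031.5) lies at chr3:92840286-92841404, Lce3c (ENSMUSG00000045475.6) at chr3:92851793-92853040 and Lce3d (ENSMUSG00000043472.11) at chr3:92864697-92865812. Lce3e (ENSMUSG00000074433.5) lies at chr3:92874368-92875588 and Lce3f (ENSMUSG00000068885.5) at chr3:92899533-92900733. The coding parts are close copies of each other, with 18 of 294 positions differing among the 6 genes and pairwise identity from 94.6% (Lce3a and Lce3b, 16 differing bases) to 99.3% (Lce3d and Lce3f, 2 differing bases).

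Such likeness bears on the counts, since STAR counts a read for a gene only where it aligns once. Cut into windows of 50 bases, the exons of Lce3b held 86.8% windows that occur once in the genome, those of Lce3a 79.9%, Lce3c 62.0%, Lce3e 53.6%, Lce3f 48.8% and Lce3d 46.4%. Within the coding part of Lce3f, 0 of 245 windows occurred once, against 183 of 245 for Lce3b. The length of 50 bases was chosen here, since a 100 bp sequencing kit was used and whether it gave 1 read or a pair per fragment is not given in the sources used here. In windows of 100 bases 423 of 423 occurred once for Lce3a, and the shares were 98.8% for Lce3b, 73.0% for Lce3c, 69.8% for Lce3d, 61.4% for Lce3e and 53.9% for Lce3f, with 0 of 195 in the coding part of Lce3f. How many reads this left out for each gene was not tested, and levels between genes are therefore given on 3 scales, while the change of a gene between mice compares like with like.

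Upstream of their starts the genes are less alike. Over the 250 bases before the annotated start, identity was 82.8% for Lce3d and Lce3e, 77.9% for Lce3c and Lce3e, and 75.2% for Lce3c and Lce3d, while pairs with Lce3a reached 58.5% at most. The last 120 bases before each start are shown because they hold the longest runs of letters that the members share, and capitals mark those runs.
Lce3a (GRCm39 chr3:92833538-92833657, minus strand): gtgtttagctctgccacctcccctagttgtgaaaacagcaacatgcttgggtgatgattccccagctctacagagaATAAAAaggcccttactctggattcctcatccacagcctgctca
Lce3b (GRCm39 chr3:92840166-92840285, plus strand): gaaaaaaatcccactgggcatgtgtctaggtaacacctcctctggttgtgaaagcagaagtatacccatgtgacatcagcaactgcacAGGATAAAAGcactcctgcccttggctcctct
Lce3c (GRCm39 chr3:92851673-92851792, plus strand): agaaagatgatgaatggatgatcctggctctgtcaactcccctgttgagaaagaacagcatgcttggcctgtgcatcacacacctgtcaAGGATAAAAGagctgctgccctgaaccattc
Lce3d (GRCm39 chr3:92864577-92864696, plus strand): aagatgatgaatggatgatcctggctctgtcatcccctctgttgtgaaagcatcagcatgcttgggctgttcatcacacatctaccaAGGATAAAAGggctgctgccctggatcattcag
Lce3e (GRCm39 chr3:92874248-92874367, plus strand): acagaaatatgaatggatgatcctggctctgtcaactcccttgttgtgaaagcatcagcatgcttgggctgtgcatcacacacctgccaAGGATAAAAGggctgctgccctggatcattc
Lce3f (GRCm39 chr3:92899413-92899532, plus strand): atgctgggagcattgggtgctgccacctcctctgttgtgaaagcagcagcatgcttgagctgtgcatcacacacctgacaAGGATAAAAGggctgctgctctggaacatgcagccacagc
The run ATAAAA was present in all 6 windows, between 23 and 44 bases before the start (with a further copy in Lce3f), and in 12% of the 250-base windows before 21614 protein-coding genes. The longer run AGGATAAAAG was present in 5 of 6, all but Lce3a, and in 0.12% of those windows. Both runs were found by looking for letters the members share, so their presence in the members is a description. Of 5 motifs searched on both strands, the AP-1 motif TGANTCA was in 0 of 6 windows (6.48% of all), the GRHL motif AACCNGTT in 0 of 6 (1.94%) and the C/EBP motif TTNCGNAA in 0 of 6 (2.08%). The TATA box TATAAA was in 1 of 6 (12.5% of all), on the opposite strand and far from the start of Lce3e, and the KLF motif CACCC in 2 of 6 (51.4%), Lce3a and Lce3f. No match says only that these letters are not in this window.

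Without UVB the group was barely detected. Counts over all 6 genes together made a summed level of 1.63, 0.783, 6.84 and 4.82 CPM in no-UVB males 1 to 4 and of 2.12, 3.37, 1.77 and 1.41 CPM in no-UVB females 1 to 4. After UVB the sum was 297, 373.7, 156.5 and 181.3 CPM in males and 34.8, 71.3, 57.3 and 41.2 CPM in females. No irradiated mouse overlapped a no-UVB mouse, and the lowest irradiated male lay above the highest irradiated female. Each of the 6 genes by itself also kept these groups apart. Over all genes tested, irradiated mice lay wholly above no-UVB mice for 22.9% in males and 11.1% in females and wholly below for 24.3% and 10.1%, and irradiated males lay wholly above irradiated females for 11.5% and wholly below for 9.76%. All 6 genes rose after UVB in males, where 4.08% of 16535 genes tested rose and 3.31% fell, and all 6 rose in females, where 1.63% of 16883 rose and 1.08% fell. Their median log2 fold change was 6.71 in males and 4.11 in females, beside -0.02 and 0.00 over all genes tested (edgeR's quasi-likelihood test, n = 4 mice per group).

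**Figure D1:**
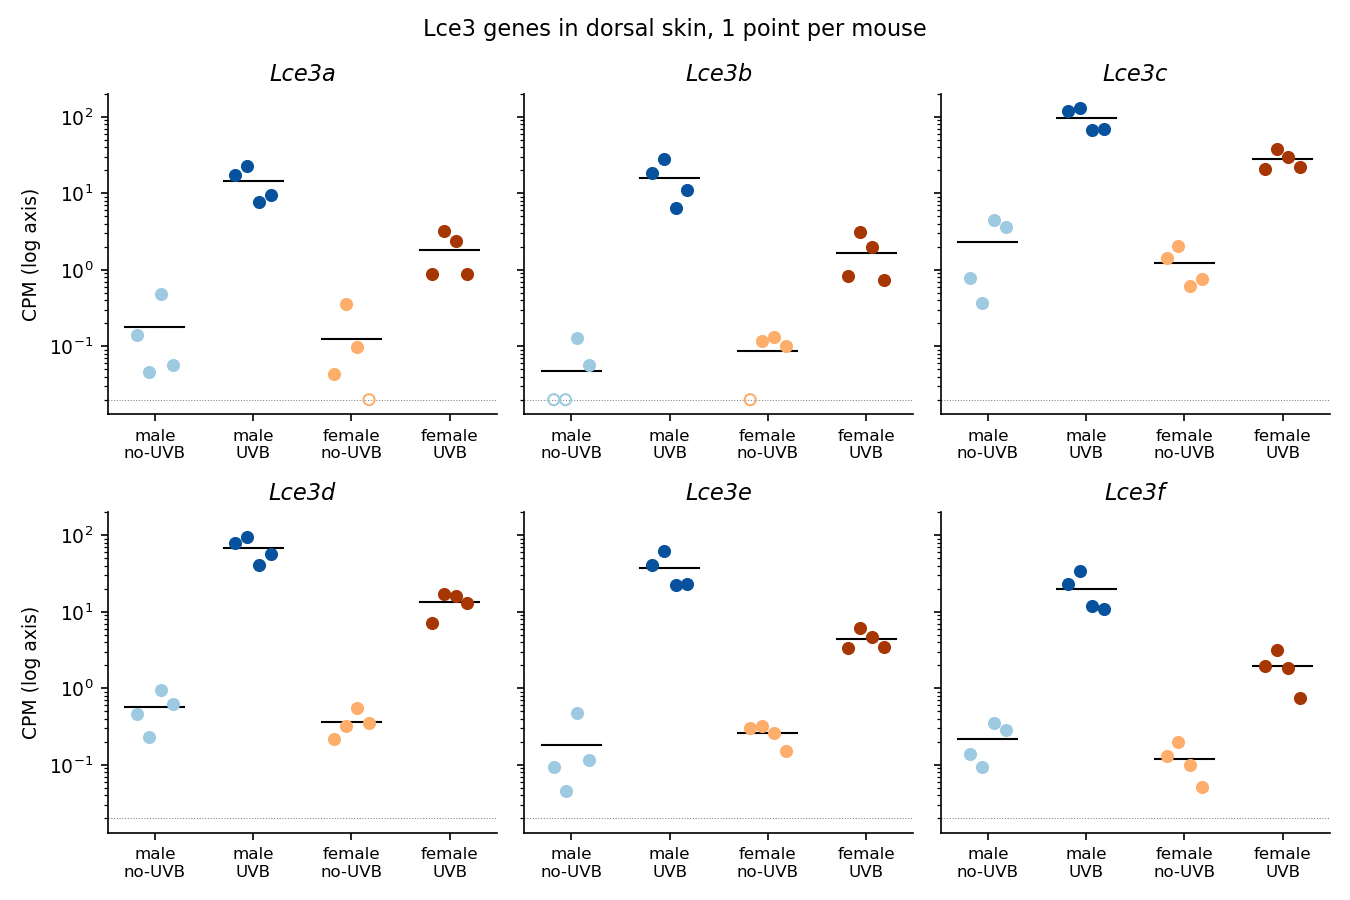
CPM of each Lce3 gene on a log axis, with 1 point per mouse, the group mean as a line and open points on the dotted line for mice with 0 counts. In every panel the irradiated mice of a sex lie above its no-UVB mice, and the 4 irradiated males lie above the 4 irradiated females, as was the case for 22.9% (males), 11.1% (females) and 11.5% of all genes tested.

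Lce3c, an envelope precursor like the other members, had the highest CPM. It stood at 0.792, 0.368, 4.46 and 3.67 CPM in no-UVB males 1 to 4 and at 118.1, 130.5, 67.3 and 69.7 CPM in irradiated males. In females it stood at 1.43, 2.06, 0.622 and 0.758 CPM without UVB and at 20.7, 38.6, 30.1 and 22.4 CPM after UVB. It was the one member with more than 1 CPM in some no-UVB mice, and its 2 high no-UVB males were those with hair follicle markers. The fitted log2 fold change was 5.41 ± 0.59 (SE) in males and 4.53 ± 0.34 in females, with edgeR adjusted p of 0.000265 and 0.000106. Without no-UVB male 3 the male value was 6.04, and without both males high in hair follicle markers it was 7.41.

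Lce3d stood at 0.466, 0.230, 0.953 and 0.631 CPM in no-UVB males and at 78.6, 96.2, 40.55 and 57.1 CPM in irradiated males. In females it stood at 0.217, 0.317, 0.557 and 0.354 CPM without UVB and at 7.05, 17.05, 16.3 and 13.0 CPM after UVB. Irradiated female 1 was the low mouse of its group here, and no irradiated mouse overlapped a no-UVB mouse. The log2 fold change was 6.90 ± 0.43 (SE) in males and 5.16 ± 0.36 in females, the largest of the 6 in females, with edgeR adjusted p of 1.05e-05 and 9.40e-05. Without both no-UVB males high in hair follicle markers the male value was 7.63.

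Lce3e stood at 0.0932, 0.046, 0.4765 and 0.115 CPM in no-UVB males, where the third mouse stood far above the others. After UVB the males reached 40.8, 62.5, 22.5 and 22.8 CPM. Females went from 0.303, 0.317, 0.262 and 0.152 CPM without UVB to 3.397, 6.09, 4.71 and 3.44 CPM after UVB. Its log2 fold change was 7.58 ± 0.66 (SE) in males and 4.06 ± 0.29 in females, with edgeR adjusted p of 6.75e-05 and 8.97e-05. Without no-UVB male 3 the male value was 8.75, and without males 3 and 4 together 8.98.

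Lce3f stood at 0.140, 0.0921, 0.3465 and 0.287 CPM in no-UVB males and at 23.4, 34.1, 11.8 and 10.95 CPM in irradiated males. In females it went from 0.130, 0.198, 0.0982 and 0.0505 CPM to 1.96, 3.21, 1.84 and 0.744 CPM. Irradiated female 4 was lowest, at 16 counts, and still lay above all no-UVB females. The log2 fold change was 6.52 ± 0.62 (SE) in males and 3.97 ± 0.53 in females, with edgeR adjusted p of 6.79e-05 and 0.00107. Without both no-UVB males high in hair follicle markers the male value was 7.40.

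Lce3a and Lce3b had the fewest counts. Lce3a stood at 0.140, 0.046, 0.4765 and 0.0573 CPM in no-UVB males and at 17.6, 22.5, 7.76 and 9.49 CPM in irradiated males. It went in females from 0.0433, 0.357, 0.0982 and 0 CPM to 0.875, 3.21, 2.36 and 0.883 CPM. No-UVB male 3 and no-UVB female 2, with 11 and 9 counts, set much of the level of Lce3a without UVB. The log2 fold change of Lce3a was 6.21 ± 0.61 (SE) in males and 3.79 ± 0.71 in females, with edgeR adjusted p of 6.54e-05 and 0.00751. Without no-UVB male 3 the male value was 7.38, without males 3 and 4 it was 7.23, and without no-UVB female 2 the female value was 4.99.

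Lce3b was counted 0, 0, 3 and 1 times in no-UVB males, at or under the floor of 3 counts per library, and 592, 438, 123 and 215 times in irradiated males. These are levels of 0, 0, 0.130 and 0.0573 CPM against 18.4, 27.95, 6.49 and 11.2 CPM. The ratio of the pooled CPM was 333 with a 95% interval of 130 to 1225 for counting error only (exact binomial), and the fitted log2 fold change of 8.24 ± 0.85 (SE, edgeR adjusted p = 0.000117) is no bound, since such a value depends on the prior count. Without no-UVB male 3 the fitted value was 9.50, and without males 3 and 4 the remaining no-UVB males had 0 counts, so that no fold is given. In females Lce3b went from 0, 0.119, 0.131 and 0.101 CPM to 0.823, 3.10, 2.02 and 0.744 CPM, with a log2 fold change of 4.17 ± 0.68 (edgeR adjusted p = 0.00373).

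Within the irradiated groups the members largely kept a single order of mice. Among irradiated males, mouse 2 had the highest CPM and mouse 1 the next for all 6 genes, and mouse 3 the lowest for all but Lce3f. Among irradiated females, mouse 2 was highest for all 6. Without UVB, male 3 was highest for all 6 genes, while in females, at counts near 0, no mouse was highest or lowest throughout, and female 3 was highest for Lce3b and Lce3d but lowest for Lce3c. The highest irradiated mouse exceeded the lowest of its group by 1.94-fold (Lce3c) to 4.30-fold (Lce3b) in males and by 1.79-fold (Lce3e) to 4.31-fold (Lce3f) in females. Markers of the basal keratinocyte, summed over 6 genes, were highest in irradiated male 2 as well (11860 CPM, the others 8467 to 9981) but lowest in irradiated female 2 (4647 CPM, the others 5721 to 7198). The part of keratinocyte content in these orders was not tested.

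Males and females were compared because the study asked how their skin differs in its reaction to UVB. After UVB all 6 genes were higher in males than in females, where 12.8% of 17406 genes tested were higher and 12.5% lower at an adjusted p under 0.1 with no fold required. These shares stand for 2222 and 2169 genes, and 1322 and 1469 were called without irradiated female 1. The male excess ran from a log2 difference of 1.78 ± 0.39 (SE) for Lce3c through 2.34 ± 0.28 for Lce3d, 2.92 ± 0.46 for Lce3a, 3.06 ± 0.33 for Lce3e and 3.21 ± 0.47 for Lce3b to 3.34 ± 0.40 for Lce3f, with edgeR adjusted p from 6.59e-05 (Lce3e) to 0.00881 (Lce3c). As pooled CPM the males had 3.41 times the Lce3c and 9.90 times the Lce3f of females. The 4 irradiated males did not overlap the 4 irradiated females in any of the 6 (11.5% of all genes tested separated this way).

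Without UVB 0 of 6 members were called between males and females by edgeR or by DESeq2, and 0 had an unadjusted p under 0.05, where 7.21% of 17406 genes were higher in males and 4.58% lower. These 1255 and 797 genes became 762 and 430 without no-UVB male 2, 950 and 522 without no-UVB male 1, and 810 and 646 without no-UVB female 2. The differences were 0.51 (95% interval -2.0 to 3.03) for Lce3a, -0.86 (-4.51 to 2.80) for Lce3b and 0.92 (-0.48 to 2.32) for Lce3c on the log2 scale. They were 0.61 (-0.87 to 2.10) for Lce3d, -0.45 (-2.42 to 1.51) for Lce3e and 0.80 (-1.44 to 3.03) for Lce3f. With so few reads, intervals this wide leave room for differences of several fold in either direction for Lce3a, Lce3b, Lce3e and Lce3f. The unadjusted p was 0.179 for Lce3c and between 0.394 and 0.669 for the rest. Without both males high in hair follicle markers the signs of Lce3a, Lce3c, Lce3d and Lce3f turned, to -0.48, -1.06, -0.10 and -0.06, and Lce3e stood at -1.84. The median of the 6 fitted differences went from 0.56 to -0.77, again with 0 called, and Lce3b had 0 counts in the males that remained. Leaving out no-UVB male 3 alone turned Lce3a to -0.64.

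**Figure D2:**
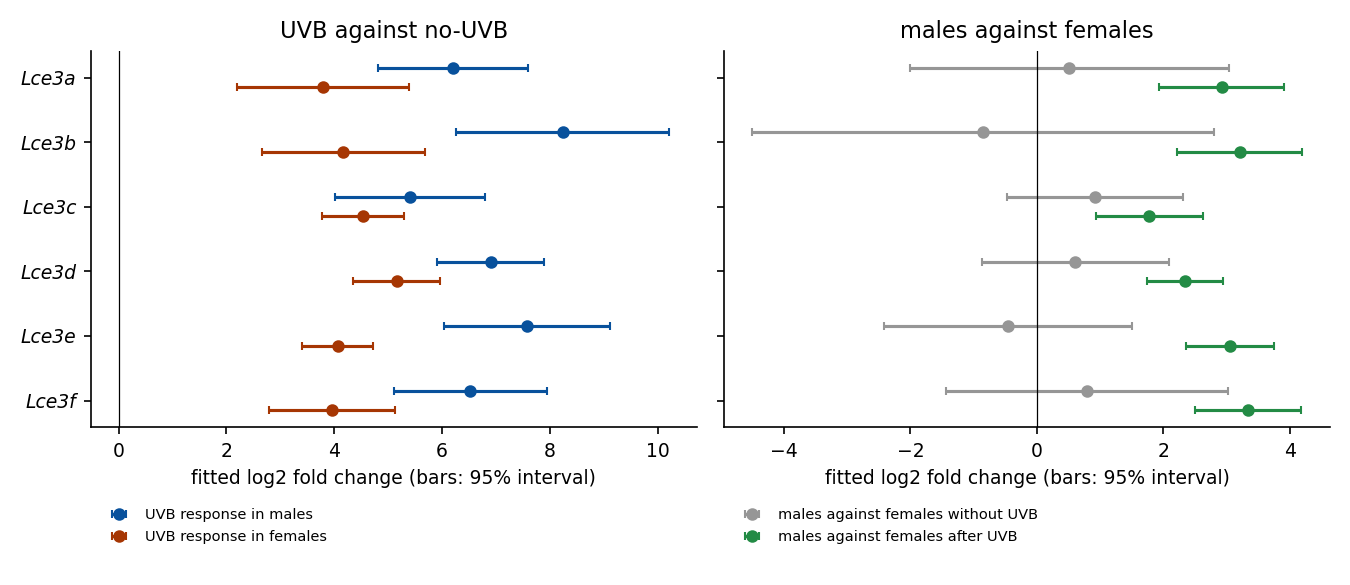
Fitted log2 fold changes with 95% intervals for UVB against no-UVB in each sex (left) and for males against females in each condition (right). All 12 UVB responses and all 6 differences after UVB lie right of 0, and all 6 intervals without UVB span 0.

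The difference between the responses themselves was tested as the interaction of UVB and sex, over all 16 mice. Only Lce3e passed, with a male response larger by 3.51 ± 1.0 (SE) on the log2 scale (95% interval 1.37 to 5.64, edgeR adjusted p = 0.0711), where 2.75% of 17406 genes passed with a larger value in males and 4.25% with a smaller one. These shares stand for 478 and 740 genes, which became 163 and 298 without irradiated male 1 and 835 and 907 without irradiated female 3. The other members also had larger fitted values in males, by 0.86 for Lce3c (95% interval -0.80 to 2.51), 1.73 for Lce3d (0.06 to 3.399), 2.41 for Lce3a (-0.53 to 5.34), 2.54 for Lce3f (-0.13 to 5.22) and 4.06 for Lce3b (0.07 to 8.06). Their edgeR adjusted p were 0.224 to 0.562, so a larger rise in males was not shown for these 5. DESeq2's Wald test on the same counts called 4 members, Lce3b, Lce3d, Lce3e and Lce3f, all with the larger value in males, where it called 6.33% of all genes in that direction and 5.39% in the other. For Lce3b both tests rest on 4 counts over the no-UVB males and 9 over the no-UVB females. Its fitted edgeR value depends on the prior count and is no bound. The call for Lce3e was lost in 8 of 16 fits that left out a mouse, with irradiated female 1, no-UVB females 1, 2 and 3, irradiated male 1 or no-UVB males 1, 2 and 4 left out (log2 difference 3.18 to 3.52 in these, adjusted p 0.110 to 0.147), and was kept at 4.66 without no-UVB male 3. With the filter lowered to 1 count per gene it was lost as well (adjusted p = 0.2003). Without no-UVB males 3 and 4 together, Lce3e kept its call at 4.89 ± 1.34 (edgeR adjusted p = 0.0552) and Lce3c passed too, at 2.84 ± 0.79 (adjusted p = 0.0575). In that fit 832 of 18088 genes passed with a larger value in males and 1036 with a smaller one. Lce3a, Lce3d and Lce3f then stood at 3.397, 2.44 and 3.40 and did not pass, with edgeR adjusted p of 0.273, 0.168 and 0.2405.

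The relative levels of the members were compared per length. Per kilobase of exon, irradiated males had 170 ± 57.5 (SD, n = 4) CPM of Lce3c, 138.7 ± 49.6 of Lce3d, 61.2 ± 31.1 of Lce3e, 32.8 ± 17.9 of Lce3f, 28.5 ± 16.6 of Lce3b and 26.1 ± 12.6 of Lce3a. The order Lce3c, Lce3d, Lce3e, Lce3f held in each of the 4 mice, although neighbours overlapped between mice, and Lce3f, Lce3b and Lce3a changed places. Irradiated females had 49.3 ± 14.4 CPM per kilobase of Lce3c, 27.2 ± 9.27 of Lce3d, 7.27 ± 2.11 of Lce3e, 3.34 ± 2.10 of Lce3a, 3.17 ± 1.65 of Lce3f and 2.97 ± 1.99 of Lce3b, and the last 3 did not differ beyond their spread. Scaled instead to 1000 windows that occur once in the genome, Lce3d passed Lce3c in 3 of 4 irradiated males, at 372 ± 133 against 331 ± 112 CPM, while Lce3c stayed ahead in all 4 irradiated females, at 96.1 ± 28.1 against 73.0 ± 24.9. With windows of 100 bases Lce3d passed Lce3c in 1 of 4 irradiated males, at 283.8 ± 101.4 against 316.1 ± 106.9 CPM, and in 0 of 4 irradiated females. Which of Lce3c and Lce3d is most abundant in irradiated males thus depends on the length used.

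The make-up of the group differed between irradiated males and females. Per kilobase, Lce3c made 34.1 to 41.9% of the group's level in irradiated males and 50.6 to 58.2% in irradiated females, without overlap. Lce3e made 11.3 to 15.2% in males and 7.40 to 8.91% in females, also without overlap. Lce3d made 29.0 to 35.0% in males and 22.9 to 34.95% in females, which overlapped. These shares restate the unequal male excess of the members and were given no test of their own.

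**Figure D3:**
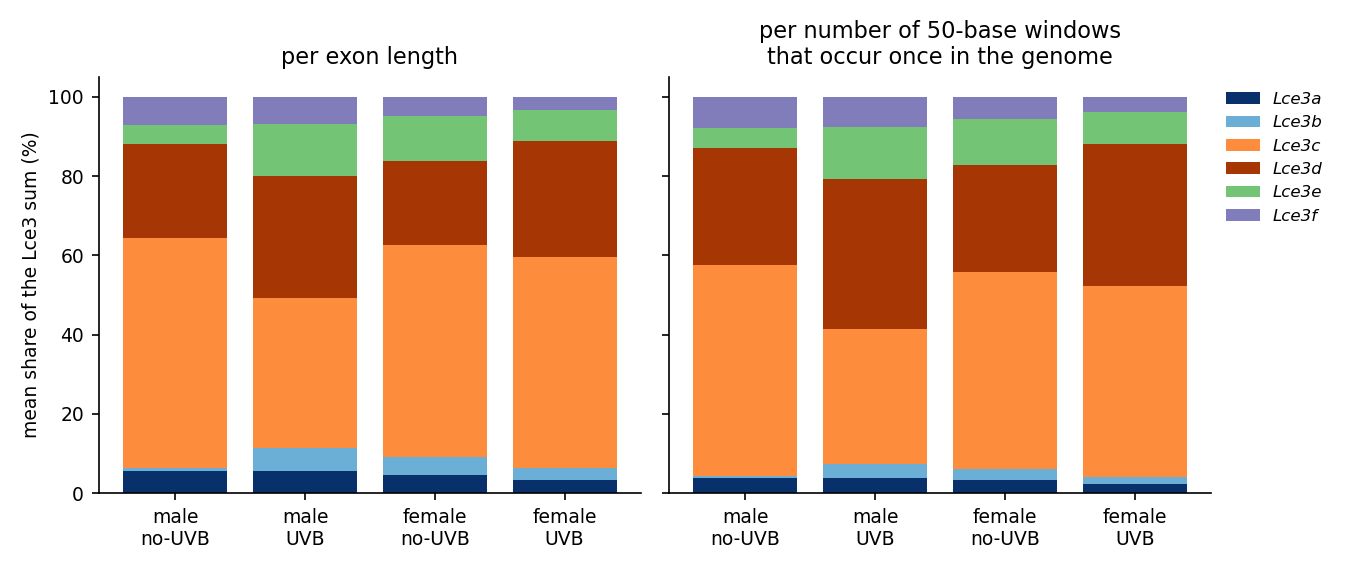
Mean share of each member in the summed level of the group, in percent, per exon length (left) and per number of 50-base windows found once in the genome (right), for 4 mice per group. Lce3c and Lce3d together make most of the group on both scales, and the Lce3c part is smaller in irradiated males than in irradiated females.

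The genes directly on each side did not share the size of the response. Kplce, a neighbour before Lce3a, had a log2 fold change of 0.77 ± 0.12 (SE) in males and 0.81 ± 0.14 in females, and Crct1, a neighbour after Lce3f and an envelope-type protein, 0.70 ± 0.15 and 0.62 ± 0.18. All 4 values had an adjusted p under 0.1 but stayed under a log2 fold change of 1. Next to Crct1, Lce1m fell short of the threshold in males at -0.83 ± 0.19 and stood at 0.08 ± 0.12 in females. Over the 63 protein-coding genes of the complex from S100a9 to S100a11, a span of 2835 kb, 31 of the 49 others tested in males rose and 1 fell, and 20 of 44 rose in females. The median log2 fold change of those others was 1.92 in males and 0.87 in females, and without both no-UVB males high in hair follicle markers 39 of 52 rose and 1 fell in males (median 2.58). In males the others with a fitted log2 fold change of at least the lowest Lce3 value (5.41) were all small proline-rich genes, among them Sprr1b (7.03), Sprr2g (5.85) and Sprr2d (5.71), which stood at 8.76, 7.36 and 6.59 without the 2 males. Of those genes Sprr2b, Sprr2e, Sprr2f and Sprr3 never exceeded 2 counts in a no-UVB male, and as their fitted values depend on the prior count they set no order. Without the 2 males the lowest Lce3 value was 7.23, above that of Sprr2d and below those of Sprr1b and Sprr2g.

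**Figure D4:**
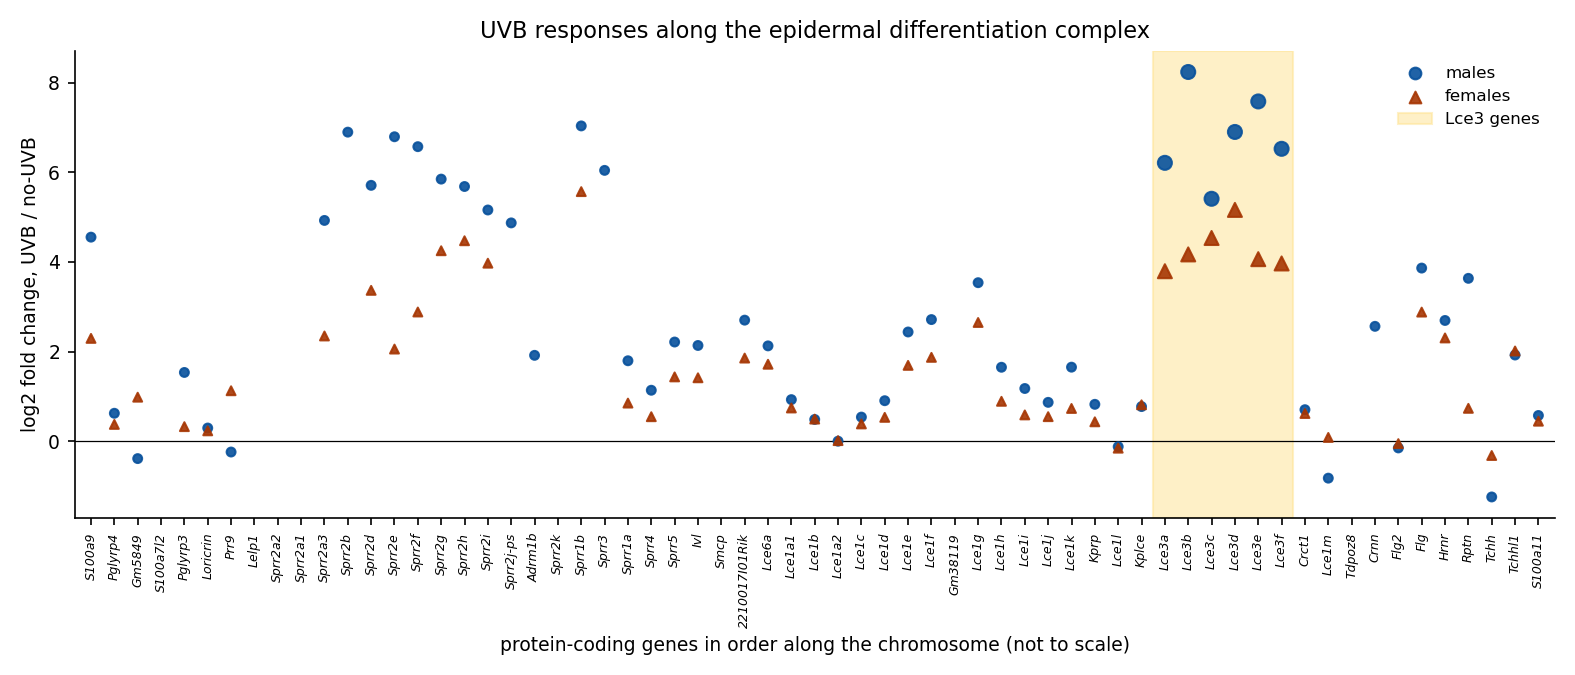
Log2 fold change of UVB against no-UVB for the protein-coding genes of the epidermal differentiation complex in chromosome order, males as circles and females as triangles, with genes not tested left blank. The Lce3 block (shaded) stands above its direct neighbours Kplce and Crct1, with a second high block among the Sprr2 genes, Sprr1b and Sprr3.

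The Lce1 genes, the other large late cornified envelope group and typical of undisturbed epidermis, gave the nearest comparison. Their summed level was 1011, 904.2, 1450 and 1562 CPM in no-UVB males and 1798, 1823, 1659 and 1152 CPM in irradiated males, so that the groups overlapped. The overlap came from no-UVB males 3 and 4, those high in hair follicle markers, and irradiated male 4. Without these 2 no-UVB males the rest lay wholly below the irradiated males. In females the sum was 937.2 to 1364 CPM without UVB and 918 to 1827 CPM after UVB. Lce1m, the largest part of the sum, had male means of 543.8 CPM without UVB and 301.9 CPM after UVB, and female means of 480.9 and 506.5 CPM. Of 14 Lce1 genes tested, 6 rose in males and 3 in females and the rest did not pass, with medians of 0.91 and 0.57. Lce1g (3.54 ± 0.51 in males and 2.65 ± 0.48 in females), Lce1f (2.71 ± 0.36 and 1.87 ± 0.32) and Lce1e (2.44 ± 0.38 and 1.69 ± 0.40) rose most, and even the largest of these fitted values lay below the smallest of the Lce3 genes in the same sex. Without both no-UVB males high in hair follicle markers, 9 of the 14 rose in males and the median of the 14 was 1.61, with male values of 4.68 for Lce1g, 3.42 for Lce1f and 3.10 for Lce1e. Lce6a, a single-gene branch of the family, rose by 2.13 ± 0.34 in males (2.87 without those 2 mice) and 1.72 ± 0.29 in females. Lce2a, Lce2b, Lce2c and Lce2d had no identifier under those names and are not analysed here.

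**Figure D5:**
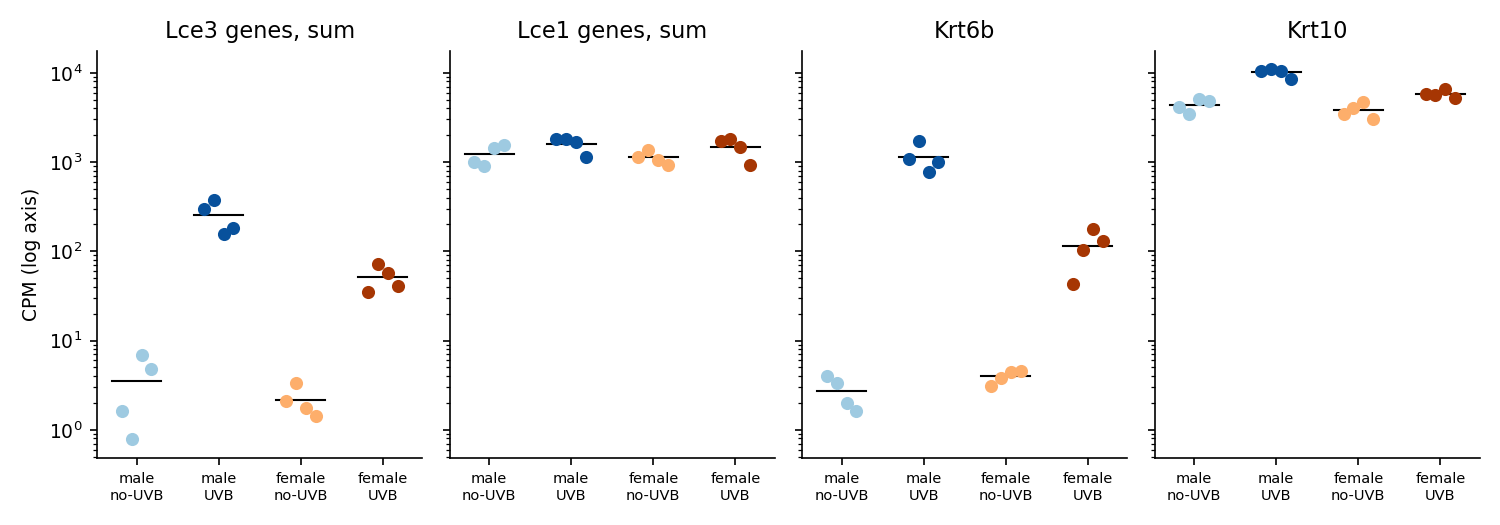
Summed CPM of the 6 Lce3 genes and of the 14 Lce1 genes, and CPM of Krt6b and Krt10, on a shared log axis with 1 point per mouse and the group mean as a line. The Lce3 sum and Krt6b separate irradiated from no-UVB mice by far more than the Lce1 sum or Krt10.

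Other envelope genes also rose. The small proline-rich genes, cross-bridging precursors of the envelope, rose in 12 of 12 tested in males and 8 of 10 in females, with medians of 5.78 and 3.12. Sprr1b rose by 7.03 ± 0.60 in males (8.76 without both no-UVB males high in hair follicle markers) and 5.57 ± 0.29 in females. Sprr2e had 4 counts over the no-UVB males and 483 over the irradiated males, a ratio of pooled CPM of 117.7 with a 95% interval of 45.7 to 433.6 for counting error only (exact binomial), and rose by 2.06 ± 0.38 in females. Sprr2b had 1 count against 168 in males, a ratio of 163.7 with an interval of 29.0 to 6504, and was not tested in females. Its 1 count was in a male that remains without the 2 males, where its ratio was 84.5 (14.9 to 3355) and that of Sprr2e 121 (33.4 to 1005). Without the 2 males 13 of 13 tested rose, with a median of 6.85. The Sprr2 genes are a family of related sequences too, and how far their likeness bears on their counts was not tested. Of 18 other envelope precursors, 9 rose and 1 fell in males and 5 of 17 tested rose in females, with medians of 0.93 and 0.58. Filaggrin (Flg), which bundles keratin filaments, rose by 3.86 ± 0.21 and 2.88 ± 0.30, and hornerin (Hrnr) by 2.69 ± 0.24 and 2.30 ± 0.24. Repetin (Rptn) rose by 3.63 ± 0.25 in males, with 0.73 ± 0.30 in females (adjusted p = 0.135) and an interaction of 2.89 ± 0.43 (adjusted p = 0.0066), and trichohyalin (Tchh), a protein of the hair follicle's inner root sheath, fell in males (-1.24 ± 0.53), a call that was lost at 0.00 ± 0.17 without the 2 no-UVB males with follicle markers. Those 2 mice left out, 10 of the 18 rose and 0 fell in males.

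Enzymes that join and process the envelope rose in 7 of 8 tested in males (8 of 8 without the 2 no-UVB males high in hair follicle markers) and 5 of 7 in females. Among them were caspase 14 (Casp14), which helps break filaggrin down (3.41 ± 0.25 and 2.30 ± 0.28), and transglutaminase 3 (Tgm3), which cross-links envelope proteins (2.85 ± 0.16 and 1.62 ± 0.27). Peptidylarginine deiminase 1 (Padi1) rose by 3.26 ± 0.53 in males (4.77 without the 2 males) and was not tested in females. Stress keratins of injured epidermis rose in 3 of 4 tested in each sex. Krt6b rose by 8.72 ± 0.39 in males and 4.85 ± 0.42 in females, Krt16 by 6.11 ± 0.28 and 2.97 ± 0.38, and Krt6a by 3.63 ± 0.27 and 1.14 ± 0.37. All 3 passed the interaction test with a larger response in males, with adjusted p of 0.00778, 0.00976 and 0.0253.

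Transcription factors of epidermal differentiation moved less. Of 21 tested, 4 rose in males and 1 in females and the rest did not pass, with medians of 0.37 and 0.26. Ehf, an ETS factor of epithelia, rose by 2.05 ± 0.15 in males and had 0.99 ± 0.19 in females, just under the fold threshold. Fosl1, a subunit of AP-1, rose by 1.73 ± 0.24 and 1.28 ± 0.33, and Elf3, another epithelial ETS factor, rose by 1.55 ± 0.49 in males and had 0.54 ± 0.30 in females (adjusted p = 0.259). The call of Elf3 in males was lost without the 2 no-UVB males high in hair follicle markers, at 1.11 ± 0.55 (edgeR adjusted p = 0.129). Of 14 cytokines linked with psoriasis-type inflammation, 6 had enough counts to be tested in each sex, and 4 of them rose in both. Il36a rose by 5.78 ± 0.44 and 3.81 ± 0.39, Il36b by 4.38 ± 0.35 and 3.05 ± 0.30, and Il36g by 3.02 ± 0.22 and 2.36 ± 0.13, all 3 being keratinocyte cytokines of the IL-1 family. Without the 2 males, Il36a and Il36b stood at 7.11 and 5.28 in males, and 7 of 8 cytokines tested rose and 1 fell. That fit held 2 no-UVB males, and its filter let in cytokines not among the 6 tested with all males. The cytokines outside those 6 had male group means of at most 1.14 CPM, so the counts of 4 of 6 and 7 of 8 are not on the same genes. In the fits of all mice Il17a, Il17f, Il22 and Il23a, cytokines of the type 17 immune response, were not tested, with group means of at most 0.258 CPM and Il22 at 0 in every mouse.

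Several marker lists moved with UVB or sex beside the Lce3 genes. Suprabasal keratinocyte markers summed over 6 genes to 7497 to 11060 CPM in no-UVB and 18060 to 23520 CPM in irradiated males, and to 7043 to 10430 and 11180 to 14590 CPM in females, with 4 of 6 genes rising in males and 3 in females. Krt2 (4.34 ± 0.39 and 3.17 ± 0.49), Krt1 (3.13 ± 0.29 and 1.99 ± 0.26) and Dsc1 (1.65 ± 0.14 and 1.06 ± 0.13) led. Krt77 went the other way in males, from 3487 to 2630 CPM on average (-0.38 ± 0.14, under the fold threshold). In females it stood at 3293 and 3266 CPM. Relative to 1000 CPM of Krt1 and Krt10 together, the Lce3 sum was 0.198 to 1.10 CPM in no-UVB males and 8.76 to 19.1 CPM in irradiated males. In females this ratio was 0.320 to 0.722 without UVB and 4.37 to 8.42 after UVB, so that no-UVB males and females overlapped, while irradiated mice lay above no-UVB mice and irradiated males above irradiated females. Irradiated males exceeded irradiated females by 4.93-fold in the mean Lce3 sum and by 2.29-fold in the mean of this ratio. The part of suprabasal keratinocyte content in the difference was not tested. Basal markers summed to 6157 to 8953 CPM in no-UVB and 8467 to 11860 CPM in irradiated males, and to 5187 to 8068 and 4647 to 7198 CPM in females, so that irradiated males lay wholly above irradiated females, with 4 of 6 genes called higher. The suprabasal sum also separated them, again with 4 of 6 genes called higher. The part of these contents in the male excess of the Lce3 genes was not tested. UVB changed few basal genes, with Krt14 rising in males (1.43 ± 0.23) and Krt15 falling in both sexes (-1.25 ± 0.13 and -1.11 ± 0.24).

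Fibroblast markers summed to 79060 to 86270 CPM in no-UVB males, 28380 to 39290 in irradiated males, 19200 to 20540 in no-UVB females and 12110 to 21850 in irradiated females. Col1a1 and Col1a2 fell in males (-1.66 ± 0.15 and -1.57 ± 0.16) and were higher in males than in females without UVB, by 2.55 ± 0.19 and 2.35 ± 0.17. The share of collagen RNA thus differed between groups that the Lce3 genes were compared over, and its part in their CPM was not tested. Adipocyte markers summed to 4024 to 5435 CPM in no-UVB and 2793 to 3892 in irradiated males, and to 3590 to 6191 and 4457 to 6586 in females. Irradiated males thus lay wholly below irradiated females, and 6 of 6 genes were called lower, beside the male excess of the Lce3 genes. Skeletal muscle markers summed to 17290 to 21450 CPM in no-UVB and 12550 to 15440 in irradiated males, without overlap, and to 11500 to 16590 and 12380 to 17880 in females. Of the 6 muscle genes, Myh4 alone passed as lower in males (-1.09 ± 0.21), Myh1 stood at 0.34 ± 0.17, and 3 had a smaller male value in the interaction. The part of either tissue in the CPM of the Lce3 genes was not tested. Neutrophil markers summed to 29.4 to 42.1 CPM without UVB and to 23.7 to 28.7 CPM after UVB over both sexes. Mmp9, which other cells express too, made most of the sum without UVB (19.8 to 29.7 CPM, and 7.19 to 13.9 CPM after UVB). The other genes of the list summed to 7.18 to 14.6 CPM in no-UVB and 15.5 to 20.04 CPM in irradiated males, and to 7.89 to 12.4 and 11.7 to 17.7 CPM in females, and Ly6g, which defines neutrophils, was at 0 in all but a single no-UVB female. Within that list Cxcr2 rose (3.63 ± 0.20 and 2.80 ± 0.26) and Mmp9 fell (-1.57 ± 0.13 and -1.06 ± 0.15). Besides Mmp9 the genes did not move together. In males the mean of Cxcr2 went from 0.461 to 5.74 CPM and that of Csf3r from 6.05 to 9.72 CPM. Those of Retnlg (2.27 to 1.48 CPM) and Camp (1.16 to 0.739 CPM) went down, and Elane stood at 0.268 and 0.273 CPM. A change in neutrophil content was not tested.

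The genes whose pattern over the 16 mice was most like that of the Lce3 genes were found by the Pearson correlation of log2 CPM with the mean log2 CPM of the 6 members, among 15097 genes outside the Lce family. Sprr2d, a small proline-rich envelope precursor, came first (r = 0.992, and 0.868 after subtracting each group's mean). Next were Sdr9c7, a dehydrogenase of barrier lipid synthesis (0.992 and 0.814), and Tmem40, a transmembrane protein (0.991 and 0.884). Cers3, the ceramide synthase of very long epidermal ceramides (0.989 and 0.758), Gm6551 (0.989 and 0.844) and Klk13, a kallikrein protease (0.988 and 0.751), completed the first 6. All 16 points share the 4 groups, 860 genes had r above 0.9, and the median over all genes was -0.11, so these values are a description. Without the 2 no-UVB males high in hair follicle markers the r of these 6 genes was 0.9885 to 0.994, Sdr9c7 came first, and 4 of the 6 stayed among the first 6, Gm6551 and Klk13 falling to ranks 10 and 11. Cers3 rose from 31.95 ± 5.24 to 118.9 ± 11.02 (SD, n = 4) CPM in males and Klk13 from 1.05 ± 0.29 to 58.2 ± 26.5 CPM, log2 fold changes of 1.92 and 5.79, so a like pattern spanned responses of very different size.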

How the data were processed

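Poly(A) RNA from whole dorsal skin of 16 mice was prepared with a directional kit and aligned with STAR to GRCm39 by the authors, who deposited raw gene counts for each mouse. The STAR version, its annotation release and the read layout are not given in the sources used here. The count of the kit's strand was used. The other strand held 3.63 to 4.23% of gene reads. STAR counts only reads that align once, and its row for reads with several alignments was 0 in every library. Reads outside genes (8.3 to 13.69% of a library) and ambiguous reads (1.17 to 1.34%) stayed out of library sizes. Symbols and positions came from GENCODE M39 for 54749 of 55359 identifiers, matched without their version. Libraries of a group differed by far more than sampling noise (chi-square per degree of freedom at least 10.4).

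edgeR 4.0.16 (TMM, filterByExpr, robust quasi-likelihood test) was the main tool and DESeq2 1.42.0 with apeglm 1.24.0 an alternative, both in R 4.3.3. UVB responses were fitted within a sex (8 mice) and the other comparisons over all 16. Genes were called at a Benjamini-Hochberg adjusted p under 0.1 over all genes tested, with a log2 fold change past 1 for UVB responses. The fits were tested on simulated data. Labels do not say that mice of a group came from separate litters or days, so p-values measure the spread between these mice. Counting intervals and the floor of 3 counts cover counting error only.

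Sequences were read from GRCm39 with GENCODE M39 starts and exons, and the coding sequences are not reported here. The members and gene lists were chosen with earlier results of these data known. Named genes were all members, up to 3 largest rises and 2 largest falls in males per list among genes called in either sex, the 6 most alike over the 16 mice (at least 1 CPM on average, prior count 2), and the gene on each side. Further genes of the complex, Krt5, Krt10, Il17a, Il17f, Il22 and Il23a were named after their values were seen.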

Additional observations from a re-analysis of the deposited data

Results flagged for a closer look

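Lce3e in no-UVB male 3 stood at 0.4765 CPM, from 11 counts, while the other no-UVB males had 1 or 2 counts each, a gap beyond Dixon's 95% critical value for 4 mice. It was 1 of 24 groups of 4 so tested over the 6 genes, and chance flags about 1 in 20. The same mouse was the highest of the no-UVB males for all 6 genes and had 54.5 CPM of growing hair follicle markers, and the part of hair growth was not tested.

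The rise of Lce3e after UVB was larger in males than in females by 3.51 on the log2 scale (interaction term, edgeR adjusted p = 0.0711), with every irradiated mouse of both sexes above its controls. The call was lost in 8 of 16 fits that left out 1 mouse (adjusted p 0.110 to 0.147) and with the filter lowered to 1 count per gene (adjusted p = 0.2003).

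Reads on the strand opposite to the 6 genes, which no comparison used, numbered 18 in irradiated males and 3 in irradiated females against 1 in each no-UVB group. They made 0.0824% and 0.0615% of the reads on either strand of these genes in irradiated males and females, beside 0.339% and 0.461% without UVB. Each no-UVB share rests on 1 read, so the shares set no direction.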

How the results depend on the processing

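All 6 genes were called higher in males after UVB, in females after UVB and in males against females after UVB under every alternative that kept them (strand, scaling, DESeq2, a weaker filter, a single fit of all 16 mice, a replicate block, and leaving out each mouse, with 6 called each time). Requiring at least 10 counts in every mouse left 0 members to test in males and in the fits of all 16 mice and 1 in females, which rose, since this filter removes genes near 0 without UVB. The number called in the interaction of UVB and sex was 1 in the main fit, 4 with DESeq2's Wald test, 0 with every gene of at least 1 count, 2 with the replicate block, 2 without both no-UVB males high in hair follicle markers (chosen after seeing the data), and 0 to 1 with 1 mouse left out. Between unirradiated males and females, Lce3a, Lce3c, Lce3d and Lce3f turned to -0.4774, -1.06, -0.0999 and -0.0648 without those 2 males, the member median went from 0.5629 to -0.7666, and Lce3a ran from -0.6363 (without no-UVB male 3) to 1.693 (without no-UVB female 2) with 1 mouse left out. Over all genes the interaction was called higher in 478 and lower in 740, against 687 and 641 with DESeq2 size factors and 1102 and 938 with DESeq2's test. It was called higher in 229 and lower in 495 with every gene of at least 1 count, and in 382 and 647 with the replicate block. Without both no-UVB males high in hair follicle markers the counts were 832 and 1036. With 1 mouse left out they were 163 to 835 higher and 298 to 1020 lower, and the cause was not tested. Upper quartile scaling gave 579 higher and 705 lower in males (675 and 547 in the main fit) and 1659 higher and 2736 lower in males against females after UVB (2222 and 2169). No scaling moved the median of all genes by over 0.1. Replicate numbers did not pair the mice: the correlations of same-numbered deviations were -0.0732 to 0.0216 in males and -0.115 to 0.217 in females, and mice correlated best with their own number in 2 of 8 cases. The block was not fitted for the contrasts between the sexes, and a pairing of males with females was not tested. The longest annotated transcript gave the same lengths as the exons for all 6 genes. Counts of 0 to 22 per library without UVB, outside Lce3c, limit every comparison that rests on the level without UVB.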
